A study of Mus musculus with 2 samples.

Results

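Conventional dendritic cells were described in a pair of single-cell RNA libraries from subcutaneous 4T1 tumours, where they made up 88 of 17746 retained barcodes. 4T1 is a mouse mammary carcinoma line. One library came from tumours of mice given AIE COF phototherapy and the other from tumours of mice given PBS. Both sets of tumours were collected on day 7 after phototherapy and made into cell suspensions, and the labels name the strain of both as C57BL/c. The numbers of mice and tumours behind a suspension are unknown, as the labels do not state them. The design therefore has 1 library per group, no test and no p-value, and every interval below is a 95% interval that covers counting error only. A difference between the libraries and a difference between the treatments cannot be told apart.

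A barcode was counted as a conventional dendritic cell when it held at least 2 unique molecular identifiers (UMIs, 1 per captured RNA molecule) of Flt3, Xcr1, Clec9a and Cd209a together and at least 0.5% of its UMIs came from Cd74, H2-Aa, H2-Ab1 and H2-Eb1. Barcodes with 5 or more UMIs of the complement genes C1qa, C1qb and C1qc, with 5 or more of the maturation genes Ccr7, Fscn1, Il12b and Mreg, or with any UMI of Cd3d, Cd3e, Cd3g, Cd79a or Pax5 were left out. The members were thus chosen by measured UMIs of these genes. The rule gave 54 cells in the AIE COF library and 34 in the PBS library. In mm10, by the GENCODE annotation, Flt3 lies at chr5:147330741-147400489, Xcr1 at chr9:123852315-123862029 and Cd209a at chr8:3743397-3748984, all on the minus strand, and Clec9a at chr6:129408862-129424763 on the plus strand. These genes chose the cells, so their levels are given as a description and are in no count below. The members held 488945 UMIs in the AIE COF library and 362256 in the PBS library, with a median per cell of 7024.5 and 6315.5 UMIs. The retained cells as a whole were shallower in the AIE COF library, at a median of 4074 UMIs against 6756 in the PBS library.

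Conventional dendritic cells take up antigen, carry it to lymph nodes and present it to naive T cells, and they depend on the receptor Flt3 for their development. Type 1 cells depend on the factors Irf8 and Batf3, carry the chemokine receptor Xcr1 and the dead-cell receptor Clec9a, and pass antigen from dead cells to CD8 T cells. Type 2 cells are more mixed, depend in part on Irf4 and Klf4, favour CD4 T cells and are marked in mice by proteins such as Sirpa, Clec10a and, in part of them, Cd209a. In tumours both kinds lie beside monocytes and macrophages that share many of their genes.

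The sequences shown here are stretches of the promoters of 3 interferon-induced genes. These genes moved in opposite directions in different members, and 1 cell held much of their signal. Only promoters that held the motif described next are shown. Ifit2, Cmpk2 and Oasl2 were also searched for display, and their promoters held no match. Capitals mark the interferon response motif, which is GAAA, any 2 bases and GAAA again, or its reverse complement with TTTC in both places, searched on both strands in the 250 bases before the gene start, on the gene's strand, from RefSeq GRCm38.p6. The stretch shown for Ifit1 lies at chr19:34640760-34640819 on the plus strand and that for Ifit3 at chr19:34583348-34583407 on the plus strand. The stretch for Rsad2 lies at chr12:26456538-26456597 on the minus strand.
Ifit1: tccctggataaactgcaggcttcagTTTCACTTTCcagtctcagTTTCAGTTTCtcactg
Ifit3: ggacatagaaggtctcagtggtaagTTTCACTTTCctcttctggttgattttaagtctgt
Rsad2: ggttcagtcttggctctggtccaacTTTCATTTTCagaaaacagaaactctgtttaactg
Of the 27 genes of the type I interferon list, 21 had a promoter in the table, and 13 of these held the motif on either strand. Over all 27025 promoters of the table, 3.04% held it. The match is of letters only and shows no binding.

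The members carried conventional dendritic cell genes that the rule did not use. All 12 such markers (Zbtb46, Itgax, Dpp4, Irf8, Batf3, Wdfy4, Cadm1, Naaa, Mgl2, Clec10a, Irf4 and Sirpa) were detected in both libraries. Their summed level was 2360 CPM (the UMIs of a gene per 1000000 UMIs of the summed cells) in AIE COF members and 2965 CPM in PBS members. Class II cells rich in C1q, a gene group of macrophages, had 1059 CPM in the AIE COF library and 1035 CPM in the PBS library. Cells with Ly6c2 or Chil3, which are monocyte genes, had 523 CPM in the AIE COF library and 674 CPM in the PBS library. Zbtb46, a factor of the conventional dendritic lineage, was at 61.4 CPM in AIE COF members and 35.9 CPM in PBS members. It was at 2.76 CPM or less in both the C1q-rich and the Ly6c2 or Chil3 cells of either library. Mature dendritic cells, which the rule left out, had more of it, at 160 CPM in the AIE COF library and 145 CPM in the PBS library. They held Irf8 at 768 and 683 CPM and Naaa at 245 and 0 CPM, so these markers are not all particular to the members. The sum of the 12 markers is not given for mature dendritic cells, so it does not set the members apart from them.

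Genes of other cell types were present at lower levels, with an exception for monocyte genes. The 9 monocyte markers summed to 2698 CPM in AIE COF members and 2564 CPM in PBS members, against 7013 and 7159 CPM in the Ly6c2 or Chil3 cells of the same libraries. Plac8, a gene of monocytes that other blood cells also carry, gave 1790 CPM of the sum in AIE COF members and 1905 CPM in PBS members, while Hp was at 0 in both libraries. The 12 macrophage markers, of which the rule limits C1qa, C1qb and C1qc, summed to 595 CPM in AIE COF members and 406 CPM in PBS members, against 13308 and 16769 CPM in C1q-rich cells and 748 and 798 CPM in the B cells of the same libraries. Neutrophil markers S100a8 and S100a9 were at 0 in both libraries. Plasmacytoid markers, of which Bst2 and Tcf4 are shared with other cells, summed to 908 CPM in AIE COF members and 919 CPM in PBS members, and Siglech, which defines that type, stood at 45.0 CPM in AIE COF members and 38.6 CPM in PBS members. What part these cells or free RNA play in the results below was not tested.

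The threshold of 2 UMIs drew many of the members in. Of the members, 18 in the AIE COF library and 11 in the PBS library held exactly 2 UMIs of the 4 genes. A further 42 AIE COF and 32 PBS barcodes met every other limit but held 1 UMI. Irf8 stood at 377 CPM in AIE COF members at the threshold and 105 CPM in PBS members at the threshold, and in members above it at 717 CPM in the AIE COF library and 1134 CPM in the PBS library. Barcodes with 1 UMI had 402 CPM of Irf8 in the AIE COF library and 163 CPM in the PBS library.

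Members formed 0.580% of retained cells in the AIE COF library (interval 0.436 to 0.756%) and 0.403% in the PBS library (0.279 to 0.563%). The ratio was 1.44 with an interval of 0.919 to 2.28, so a difference was not detectable at this depth. The choice of denominator set the direction. Among cells with a UMI of Ptprc, which encodes CD45 of leukocytes, members were 0.830% in the AIE COF library and 0.933% in the PBS library, a ratio of 0.890 (0.559 to 1.43). Among cells past the class II minimum they were 2.08% in the AIE COF library and 2.11% in the PBS library, a ratio of 0.986. After every barcode had been thinned to 2000 UMIs, 26 of 5982 AIE COF cells and 18 of 6278 PBS cells met the rule, a ratio of 1.52 (0.80 to 2.94).

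Cells with Xcr1 or Clec9a and without Cd209a were the most frequent kind by count in both libraries. They were 29 of the 54 AIE COF members, or 53.7% (39.6 to 67.4%), and 13 of the 34 PBS members, or 38.2% (22.2 to 56.4%). Cells with Cd209a and neither of the other markers were 15 AIE COF members, or 27.8%, and 7 PBS members, or 20.6%. Both kinds of marker met in 1 AIE COF member and 3 PBS members. Flt3 alone was found in 9 AIE COF members, or 16.7%, and in 11 PBS members, or 32.4%. The ratio of the Xcr1/Clec9a share was 1.40 with an interval of 0.708 to 2.94. As a share of all retained cells, Xcr1/Clec9a cells were 0.311% in the AIE COF library and 0.154% in the PBS library, a ratio of 2.02 (1.02 to 4.23). The counts lay closer after thinning to 2000 UMIs, at 14 of 5982 AIE COF cells and 11 of 6278 PBS cells. The order of the shares of members depended on how the cells were read. At a minimum of 3 UMIs 19 of 36 AIE COF members and 13 of 23 PBS members were Xcr1/Clec9a cells, a ratio of 0.934, and after thinning the ratio was 0.881. Xcr1/Clec9a cells were also the deepest, with a median of 10087 UMIs in the AIE COF library and 12537 in the PBS library, against 5149 and 7268 UMIs for Cd209a cells of the same libraries. The bars of subset shares show intervals that overlap between the libraries for each kind of cell.

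**Figure D1:**
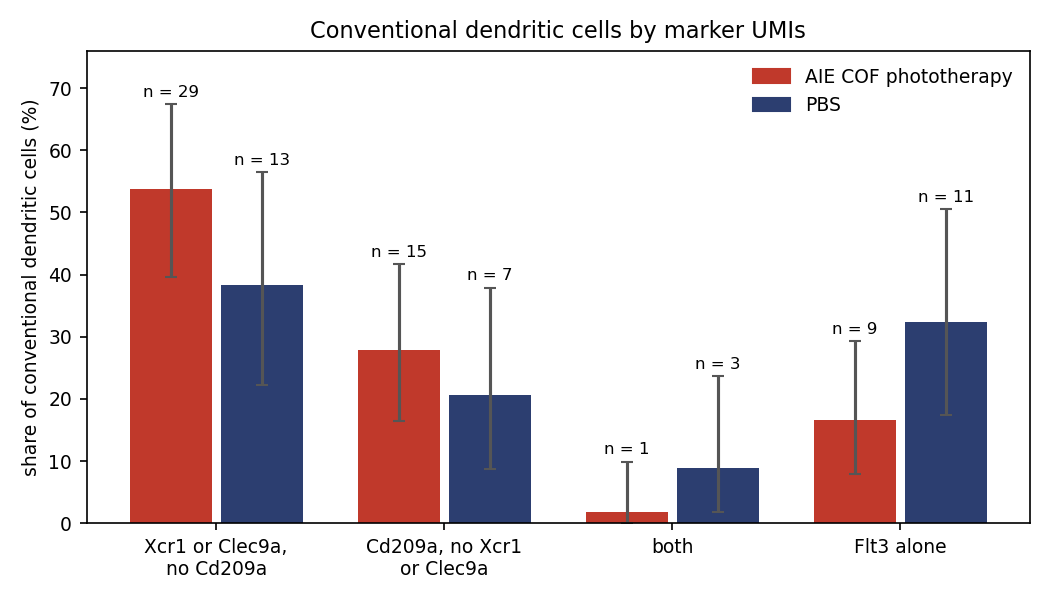
Share of conventional dendritic cells (%, y axis) by which marker UMIs they held, in the AIE COF library (red, 54 cells) and the PBS library (blue, 34 cells); whiskers are exact 95% binomial intervals and n is the number of cells. Xcr1/Clec9a cells were 53.7% in the AIE COF library and 38.2% in the PBS library, with overlapping intervals.

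Xcr1/Clec9a cells differed from Cd209a cells in the same direction in both libraries for a set of named genes. Of 2468 genes with at least 50 UMIs in these cells, 134 (5.43%) were at least 2-fold higher in Xcr1/Clec9a cells in each library and 71 (2.88%) were at least 2-fold higher in Cd209a cells in each library. The list of the type 1 program stood well above that background, with 12 of its 17 measured genes higher in Xcr1/Clec9a cells and 0 higher in Cd209a cells. The list of the type 2 program had 7 of 14 measured genes higher in Cd209a cells and 1 higher in Xcr1/Clec9a cells. That gene was Clec12a, an inhibitory lectin. The subsets were drawn by genes of these same programs, so the counts describe the cells and test nothing.

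Irf8, the lineage factor of type 1 cells, stood in the AIE COF library at 809 CPM in Xcr1/Clec9a cells and 271 CPM in Cd209a cells, and in the PBS library at 1372 CPM and 237 CPM for the same pair. Wdfy4, which cross-presentation of cell-bound antigen requires, was at 545 CPM in Xcr1/Clec9a cells and 170 CPM in Cd209a cells of the AIE COF library, and at 522 CPM and 256 CPM for the same pair in the PBS library. Cd24a, a surface glycoprotein used to sort type 1 cells, showed one of the widest gaps. It was at 412 CPM in Xcr1/Clec9a cells against 22.6 CPM in Cd209a cells of the AIE COF library, and at 487 CPM against 39.4 CPM in the PBS library. On the log2 scale the gap was 4.19 in the AIE COF library and 3.63 in the PBS library. Naaa, a lysosomal amidase, Itgae, the integrin chain CD103, and Tlr3, the receptor for double-stranded RNA, were also past 2-fold in each library. Itgae was at 145 CPM in Xcr1/Clec9a cells and 0 in Cd209a cells of the AIE COF library, which gives at least 2.09 on the log2 scale with a floor of 3 counts. Batf3 was at 55.4 CPM in Xcr1/Clec9a cells of the AIE COF library and 66.4 CPM in those of the PBS library, against 11.3 CPM in the Cd209a cells of the AIE COF library and 0 in those of the PBS library, but it had too few UMIs to be counted.

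Genes outside the type 1 program were also higher in Xcr1/Clec9a cells. Arsb, a lysosomal sulfatase, Dnase1l3, a secreted DNase, Ppt1, a lysosomal thioesterase, and Plin2, a lipid droplet coat protein, were among the 10 highest by the rule for named genes. Dnase1l3 was at 597 CPM in Xcr1/Clec9a cells against 79.1 CPM in Cd209a cells of the AIE COF library, and at 376 CPM against 59.2 CPM in the PBS library. The lipid list had 3 of 8 measured genes higher in Xcr1/Clec9a cells, namely Plin2, the fatty acid receptor Cd36 and the sterol regulator Srebf2. Entpd1, the ATP-degrading enzyme CD39, was at 283 CPM in Xcr1/Clec9a cells against 56.5 CPM in Cd209a cells of the AIE COF library, and at 274 CPM against 59.2 CPM in the PBS library. Among 15 measured cycling genes, 8 were higher in Xcr1/Clec9a cells and 0 in Cd209a cells. A sum of 8 mitosis genes came to 2000 CPM in Xcr1/Clec9a cells and 565 CPM in Cd209a cells of the AIE COF library, and to 2403 CPM and 118 CPM in the PBS library. It rested on part of the cells, since 10 of the 29 Xcr1/Clec9a cells in the AIE COF library and 6 of 13 in the PBS library held 5 or more of those UMIs. The top 2 Xcr1/Clec9a cells held 37.8% of them in the AIE COF library and 43.3% in the PBS library.

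Cd209a cells were marked by genes shared with type 2 dendritic cells and monocytes. S100a4, a calcium-binding protein of motile cells, was at 212 CPM in Xcr1/Clec9a cells against 1266 CPM in Cd209a cells of the AIE COF library, and at 75.2 CPM against 1242 CPM for the same pair in the PBS library. Itgam, the integrin chain CD11b, was at 46.2 CPM in Xcr1/Clec9a cells against 283 CPM in Cd209a cells of the AIE COF library, and at 13.3 CPM against 217 CPM for the same pair in the PBS library. Ifitm1, an interferon-induced membrane protein, Ms4a6b, Il1r2, a decoy receptor for interleukin 1, and Klrd1, which encodes the lectin CD94, were past 2-fold in each library too. Klrd1 was found in 12 of 15 Cd209a cells of the AIE COF library and 5 of 7 of the PBS library, at 735 CPM and 1104 CPM. Ptgs2, the prostaglandin synthase COX-2, had the widest gap of the genes named for Cd209a cells in the AIE COF library, at 12.3 CPM in Xcr1/Clec9a cells against 283 CPM in Cd209a cells, but rested on 2 Cd209a cells there and 1 in the PBS library. The costimulator Cd80 was also higher in Cd209a cells in both libraries. Monocyte markers moved with the subset, summing to 2320 CPM in Xcr1/Clec9a cells and 4296 CPM in Cd209a cells of the AIE COF library, and to 1898 CPM and 3589 CPM for the same pair in the PBS library, and their part in these gaps was not tested. Lyz2, a lysozyme of myeloid cells, was at 1153 CPM in Cd209a cells of the AIE COF library and 217 CPM in those of the PBS library, against 4146 and 5336 CPM in the monocyte-like cells of the same libraries. The plot of subset ratios shows every named gene on the same side of 0 in both libraries, which the rule for naming them required.

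**Figure D2:**
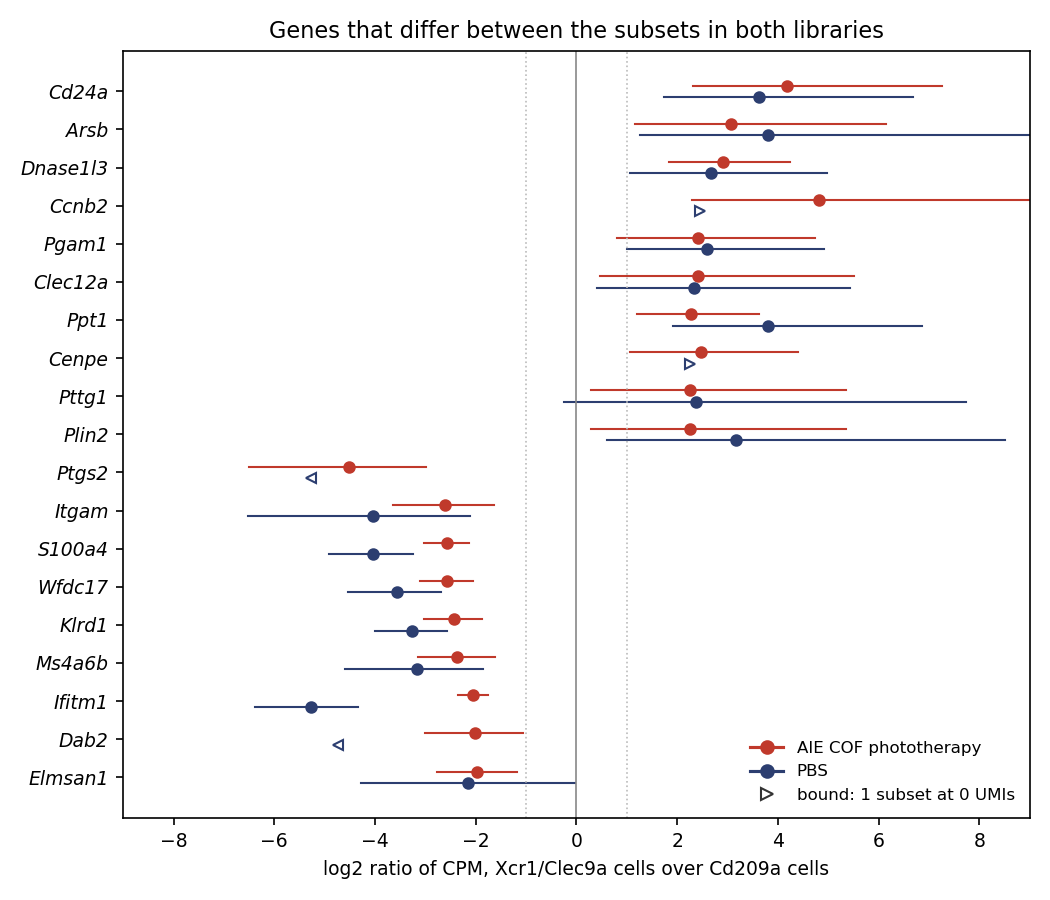
Log2 ratio of CPM in Xcr1/Clec9a cells over Cd209a cells (x axis) for the named genes highest and lowest in it, in the AIE COF library (red) and the PBS library (blue). Lines are exact 95% counting intervals, ending at the frame where they run past it; open triangles are bounds where 1 subset had 0 UMIs; dotted lines mark 2-fold. Cd24a stood at 4.19 in the AIE COF library and 3.63 in the PBS library, and S100a4 at -2.58 and -4.05.

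Between the libraries, 326 of 2957 measured genes (11%) were at least 1.5-fold higher in AIE COF members and 318 (10.8%) were at least 1.5-fold lower, with a median log2 ratio near 0 (0.005). A gene was measured when both libraries together held at least 50 of its UMIs. The rates are the background for the counts of genes past 1.5-fold that follow. For counts of genes above 0 within a set of members, the share over all measured genes is not given. For a number of genes 1 cell held much of the signal, and its share is given there. Without each gene's top cell in each library, a setting chosen after seeing the data, 446 genes were higher and 238 lower. That setting kept the full UMI totals, and 1 cell is a larger part of 34 PBS members than of 54 AIE COF members. It therefore tends to raise the ratios by construction. Of 80 named and listed genes past 1.5-fold, 25 stayed past it under every setting that gave a value, 11 of 34 higher genes and 14 of 46 lower ones.

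Egr3 and Egr2, transcription factors of the early growth response family, were higher in AIE COF members than in PBS members. Egr3 had 94 UMIs in 20 of 54 AIE COF members, or 192 CPM (155 to 235), against 7 UMIs in 3 of 34 PBS members, or 19.3 CPM (7.77 to 39.8). The log2 ratio was 3.31 (2.22 to 4.67), and no AIE COF cell held more than 22.3% of the UMIs. Egr2 had 50 UMIs in 13 AIE COF members, or 102 CPM, against 6 UMIs in 3 PBS members, or 16.6 CPM, a log2 ratio of 2.63 (1.40 to 4.14), and 1 PBS cell held 50% of the PBS total. Within Xcr1/Clec9a cells Egr3 was at 234 CPM in the AIE COF library and 13.3 CPM in the PBS library. In C1q-rich cells Egr3 stood at 4.00 CPM in the AIE COF library and 4.61 CPM in the PBS library, and in B cells at 90.5 CPM and 51.3 CPM. In Ly6c2 or Chil3 cells it was at 2.76 and 4.15 CPM. Mature dendritic cells had 96.0 CPM of Egr3 in the AIE COF library, on 9 UMIs, and 0 in the PBS library. Egr2 there was at 42.6 CPM, on 4 UMIs, and 0. In B cells Egr2 stood at 29.7 CPM in the AIE COF library and 8.75 CPM in the PBS library, and in Ly6c2 or Chil3 cells at 33.5 and 16.6 CPM. Most other immediate early genes lay within 1.5-fold, since 4 of 18 listed genes were higher and 1 was lower, at a median log2 ratio of 0.12. The higher ones were Egr3, Egr2 and the orphan nuclear receptors Nr4a3 (417 CPM in AIE COF members, 185 CPM in PBS members) and Nr4a2 (781 CPM in AIE COF members, 403 CPM in PBS members). Jun, a subunit of the factor AP-1, was lower, at 307 CPM in AIE COF members and 632 CPM in PBS members, while its partner Fos was at 3667 CPM in AIE COF members and 3290.5 CPM in PBS members.

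Lyz2 and Cd14, genes of myeloid cells, were higher in AIE COF members, while the 9 monocyte markers together, at 2698 CPM in AIE COF members and 2564 CPM in PBS members, were within 1.5-fold. Lyz2 had 257 UMIs in 19 AIE COF members, or 526 CPM, against 29 UMIs in 10 PBS members, or 80.1 CPM, a log2 ratio of 2.71 (2.16 to 3.32), with 21.8% of the UMIs in 1 AIE COF cell and 37.9% in 1 PBS cell. Lyz2 has a close relative, Lyz1, and reads may be split between them. Cd14, the endotoxin co-receptor, had 76 UMIs in 11 AIE COF members against 6 UMIs in 4 PBS members, a log2 ratio of 3.23 (2.04 to 4.72), and 1 AIE COF cell held 46.1% of them. In B cells, which should lack both, Lyz2 stood at 240 CPM in the AIE COF library and 128 CPM in the PBS library, and Cd14 at 36.1 and 6.88 CPM, so the level in PBS members lay below that in B cells for Lyz2. Within Xcr1/Clec9a cells the log2 ratio was 2.85 for Lyz2 and 3.48 for Cd14, and in the other members 2.66 and 2.96. With members holding a UMI of any of a few monocyte and macrophage genes left out, the ratio was 1.93 for Lyz2 and 2.99 for Cd14. The macrophage gene Adgre1 was also higher, at 38.9 CPM in AIE COF members and 8.28 CPM in PBS members, against 29.1 and 40.6 CPM in B cells, and its part in the result was not tested. The type 2 program as a whole had 5 of 16 measured genes higher and 2 lower, with a median of 0.32. The higher ones were Lyz2, the chemokine Ccl17, Il1r2, the factor Klf4 and the monocyte chemokine receptor Ccr2. The median of that list was -0.52 without members holding those monocyte and macrophage genes.

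Genes of the type 1 program were more often lower than higher in AIE COF members, although Xcr1/Clec9a cells were their most frequent kind. Of 17 measured genes, 8 were lower and 1 was higher, with a median log2 ratio of -0.54. Naaa was at 560 CPM in AIE COF members and 985 CPM in PBS members, a log2 ratio of -0.81 (-1.05 to -0.58). Irf8 was at 638 CPM in AIE COF members and 972 CPM in PBS members, a ratio of -0.61 (-0.83 to -0.38). Its ratio stayed past 1.5-fold under 6 of 14 settings, with values from -0.71 to -0.045. Within Xcr1/Clec9a cells Irf8 was at 809 CPM in the AIE COF library and 1372 CPM in the PBS library, and Naaa at 754 CPM in the AIE COF library and 1478 CPM in the PBS library. The list's median there was -0.55, with 2 of 17 genes above 0. Itgae, Sept3 and Txndc15 were lower as well, with ratios of -0.99, -1.04 and -1.29. Cadm1, an adhesion molecule of type 1 cells, went the other way, at 247 CPM in AIE COF members and 102 CPM in PBS members, a ratio of 1.28 (0.73 to 1.85), and stayed past 1.5-fold under each of 13 settings. The list's direction did not hold after thinning to 2000 UMIs, where its median was 0.09. That median covers only its genes that kept at least 20 UMIs, in the fewer members then selected. With each cell weighted equally the direction held, at -0.14.

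Core genes of the lineage were split. Among 15 measured genes of conventional dendritic identity, 4 were higher and 4 lower. Kit, the stem cell factor receptor, was at 217 CPM in AIE COF members and 105 CPM in PBS members, while the mast cell markers Cpa3 and Fcer1a were at 0 in both libraries. Also higher was Csf2rb, the shared chain of the GM-CSF receptor, with 286 CPM in AIE COF members and 174 CPM in PBS members. Kmo, a tryptophan-degrading monooxygenase, was lower, with 18 UMIs in 12 AIE COF members, or 36.8 CPM, and 40 UMIs in 17 PBS members, or 110 CPM, a log2 ratio of -1.58 (-2.47 to -0.75). Rab7b and Dpp4, the peptidase CD26, were lower at -1.19 and -1.05.

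A pair of linker and core histone genes had the lowest ratios. Hist1h2bc had 31 UMIs in 13 AIE COF members, or 63.4 CPM (43.1 to 90.0), against 221 UMIs in 10 PBS members, or 610 CPM (532 to 696), a log2 ratio of -3.27 (-3.86 to -2.72). Hist1h1c had 40 UMIs in 9 AIE COF members, or 81.8 CPM, against 157 UMIs in 18 PBS members, or 433 CPM, a ratio of -2.41 (-2.94 to -1.90). One PBS cell held 49.3% of the Hist1h2bc UMIs and 41.4% of the Hist1h1c UMIs there, and 1 AIE COF cell held 35.5% and 70% of those of the AIE COF library. Without the top cell of each library both genes stayed past 1.5-fold. Nearly all of the Hist1h2bc signal of PBS members lay in Xcr1/Clec9a cells, with 215 of the 221 UMIs, and Cd209a cells had 56.5 CPM in the AIE COF library and 0 in the PBS library. In C1q-rich cells Hist1h2bc was at 71.0 CPM in the AIE COF library and 91.3 CPM in the PBS library. Histone genes form families of near-identical copies, so how the counting split their reads is uncertain. Serpinb9, the inhibitor of granzyme B, had 13 UMIs in 8 AIE COF members and 39 UMIs in 9 PBS members, a ratio of -2.02 (-3.05 to -1.08). Cdk6, a kinase of the cell cycle, was lower at -1.52 and also stayed past 1.5-fold in every setting that gave a value. Ulk2, an autophagy kinase, and Tnni2, a troponin, were among the lowest by sum, but 1 PBS cell held 71.4% of the Ulk2 UMIs and 55.4% of the Tnni2 UMIs. The plot of the highest and lowest ratios sets the value without the top cells beside each.

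**Figure D3:**
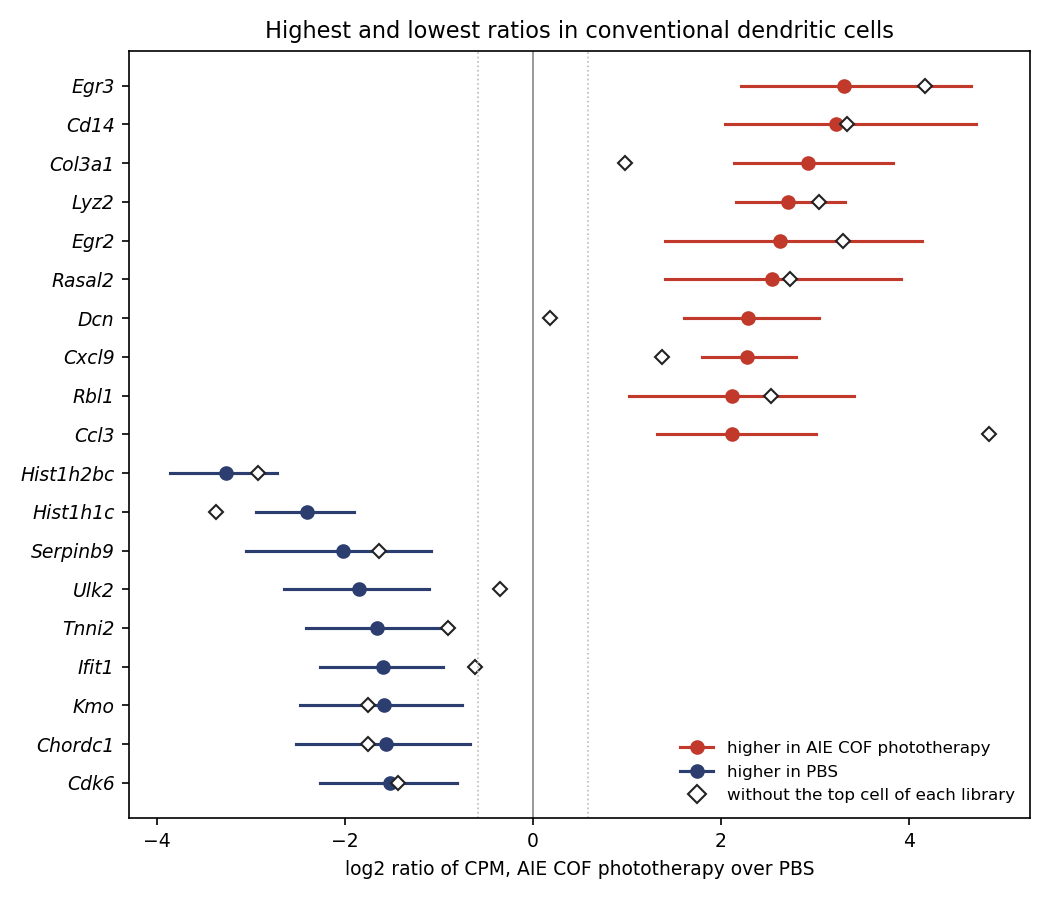
Log2 ratio of CPM in AIE COF members over PBS members (x axis) for the named genes highest and lowest in it; points and lines are the value and its exact 95% counting interval, diamonds the value without the top cell of that gene in each library, and dotted lines mark 1.5-fold. Egr3 stood at 3.31 and Hist1h2bc at -3.27, while Col3a1 and Dcn lost most of their ratio without the top cell of each library. The diamonds keep the full UMI totals, which tends to raise them.

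The chemokine list summed to 1814 CPM in AIE COF members and 1275 CPM in PBS members, within 1.5-fold, and its higher genes lay in few cells. Of 7 measured chemokine genes, 3 were higher and 1 lower, at a median of 0.57. That median ran from -0.05 to 1.05 over the settings. Cxcl9, which draws CXCR3-bearing T cells, had 263 UMIs in 13 AIE COF members against 40 UMIs in 6 PBS members, a log2 ratio of 2.28 (1.80 to 2.80), and 1 Xcr1/Clec9a cell held 65.4% of the AIE COF total. Its ratio without members holding fibroblast transcripts was -0.72. Ccl3, a ligand of Ccr1, had 88 UMIs in 10 AIE COF members against 15 UMIs in 2 PBS members, with 55.7% of its UMIs in 1 AIE COF cell and 93.3% in 1 PBS cell. Ccl17, a ligand of Ccr4, had 66 UMIs in 4 AIE COF members and 17 UMIs in 1 PBS member, and 1 Cd209a cell held 86.4% of the AIE COF UMIs. Il1b was at 1323 CPM in AIE COF members and 892 CPM in PBS members, within 1.5-fold, but in Xcr1/Clec9a cells at 1129 CPM in the AIE COF library and 305 CPM in the PBS library.

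Interferon genes moved apart by list and by subset. The interferon gamma list had 4 of 7 measured genes higher and 0 lower, with a median of 0.69. Besides Cxcl9 these were the GTPases Iigp1 and Gbp7 and the checkpoint ligand Cd274, at 98.2 CPM in AIE COF members and 60.7 CPM in PBS members. Iigp1 had 61.4% of its AIE COF UMIs in 1 cell, the same cell that held most of the Cxcl9 UMIs. The median was -0.26 without members that held fibroblast transcripts, a setting chosen after seeing the data. The top AIE COF cells of Cxcl9, Iigp1 and Gbp7 are among those it leaves out. Of 19 measured genes of the type I interferon list, 1 was higher and 5 were lower, at a median of -0.29. Ifit1, an RNA-binding effector whose promoter is shown above, had 30 UMIs in 8 AIE COF members and 67 UMIs in 8 PBS members, and 1 PBS cell with Flt3 alone held 74.6% of the PBS total. That cell also held 53.3% of Ifit2, 48.6% of Ifit3 and 48.2% of Rsad2 UMIs of PBS members, and 330 of the 1320 UMIs of the whole list. Rsad2, the antiviral enzyme viperin, was at 115 CPM in AIE COF members and 309 CPM in PBS members.

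Within Xcr1/Clec9a cells the type I list ran the other way. There 15 of 19 genes were above 0 and the median log2 ratio was 0.78, against 2 of 19 above 0 and a median of -1.10 in the other members. The share of all measured genes above 0 in each set of cells is not given, so these counts have no background. The summed list was at 2770 CPM in Xcr1/Clec9a cells of the AIE COF library and 1973 CPM in those of the PBS library. In Cd209a cells it was at 3460 CPM in the AIE COF library and 3668 CPM in the PBS library. In cells with Flt3 alone it was at 1959 CPM in the AIE COF library and 11086 CPM in the PBS library. The top 2 of those PBS cells held 81.6% of their UMIs of the list. Per cell, the median in Xcr1/Clec9a cells was 1379 CPM in the AIE COF library and 1946 CPM in the PBS library, so the sum and the median differ in direction. The top 2 Xcr1/Clec9a cells held 39.2% of the list's UMIs in the AIE COF library and 46.9% in the PBS library. Ddx60, a helicase of the antiviral response, had 31 UMIs in Xcr1/Clec9a cells of the AIE COF library and 1 in those of the PBS library.

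**Figure D4:**
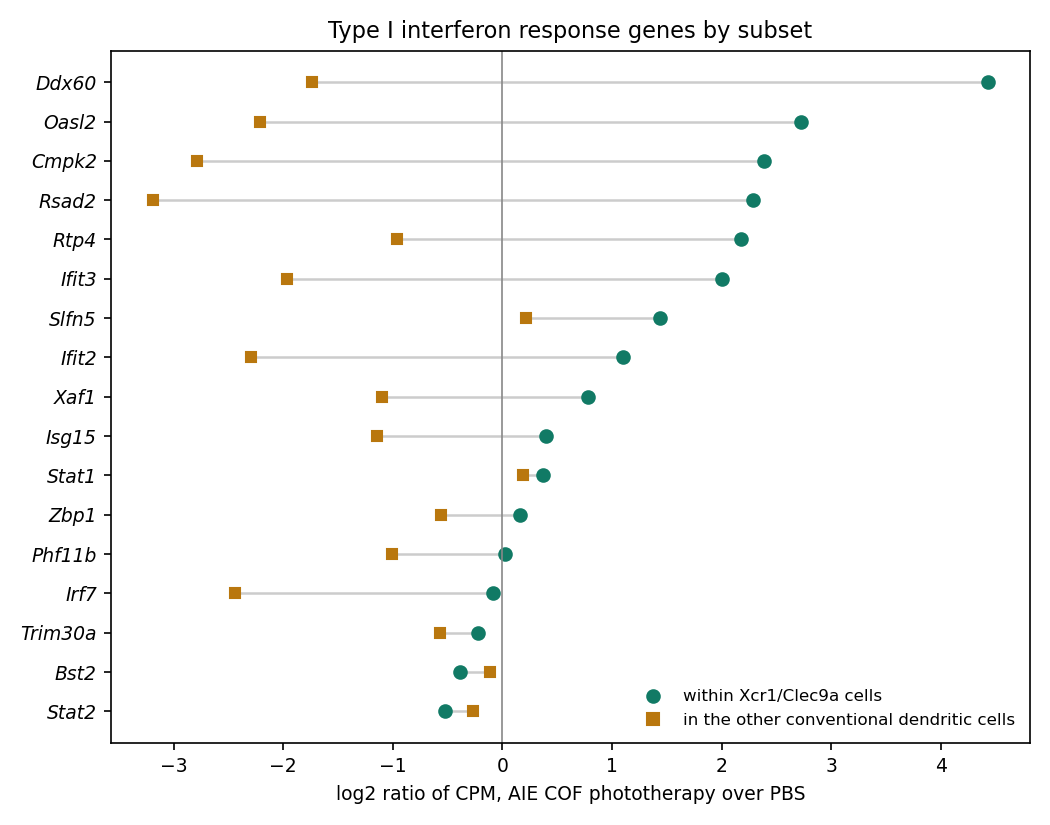
Log2 ratio of CPM in AIE COF cells over PBS cells (x axis) for the 17 genes of the type I interferon list with at least 20 UMIs over both libraries in each set of cells, within Xcr1/Clec9a cells (green circles) and in the other members (ochre squares). Of these, 13 lay above 0 within Xcr1/Clec9a cells and 2 in the others; the difference was not tested.

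Presentation genes were near balance. Of 9 measured genes of class II loading outside the rule, 0 were higher and 2 lower. These were H2-DMb2, a chain of the peptide exchange factor, and March1, the ligase that removes class II from the surface, at 61.4 CPM in AIE COF members and 135 CPM in PBS members. The list of class I presentation had 0 of 16 genes higher and 2 lower, Tap2, a subunit of the peptide transporter, and Nlrc5, the activator of class I genes. Its median was -0.05. The costimulation list had 1 of 7 genes higher, Cd274, while Cd86 was at 796 CPM in AIE COF members and 646 CPM in PBS members. In the maturation list 2 of 12 genes were higher and 1 lower, and the maturation genes of the rule kept mature cells out of the members.

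Glycolytic genes were lower in AIE COF members. In the list of hypoxia and glycolysis 4 of 8 measured genes were lower and 0 higher, with a median of -0.57 that stayed between -0.73 and -0.37 in each of 15 settings. Aldoa, an aldolase, was at 135 CPM in AIE COF members and 271 CPM in PBS members, a log2 ratio of -1.003 (-1.48 to -0.54). Ldha, which makes lactate, was at 491 CPM in AIE COF members and 792 CPM in PBS members, Gapdh at 309 CPM in AIE COF members and 478 CPM in PBS members, and Pgk1 at 204 CPM in AIE COF members and 312 CPM in PBS members. Within Xcr1/Clec9a cells the median was -0.75 with 0 of 8 genes above 0, and in the other members -0.23 with 2 of 8 above 0. Cell cycle genes had 3 of 15 higher, 0 lower and a median of 0.08. The 3 were Pcna, a replication clamp, at 648 CPM in AIE COF members and 326 CPM in PBS members, Tyms, which makes thymidylate, and the kinase Cdk1. The pooled median of the cell cycle list joined medians of opposite sign. Within Xcr1/Clec9a cells it was -0.31 with 4 of 15 genes above 0, and in the other members 1.85 with 15 of 15 above 0. The latter leaned on few cells. In the AIE COF library, 1 cell held 89 of the 121 UMIs of 8 mitosis genes in cells with Flt3 alone. Another held 35 of the 50 in Cd209a cells. In the PBS library those kinds of cell held 12 and 6 such UMIs.

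Heat shock, redox and cell death lists held few genes past 1.5-fold. Hspa5, the chaperone of the endoplasmic reticulum, was the 1 lower gene of 7 in the heat shock list, at 761 CPM in AIE COF members and 1195 CPM in PBS members. In the redox list 1 of 13 genes was higher, Txnrd1, and in the cell death list 1 of 9 was lower, Ripk1, a kinase of necroptosis and survival, at 51.1 CPM in AIE COF members and 102 CPM in PBS members. The plot of gene lists shows medians between -0.57 and 0.69, with members of most lists on both sides of 0.

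**Figure D5:**
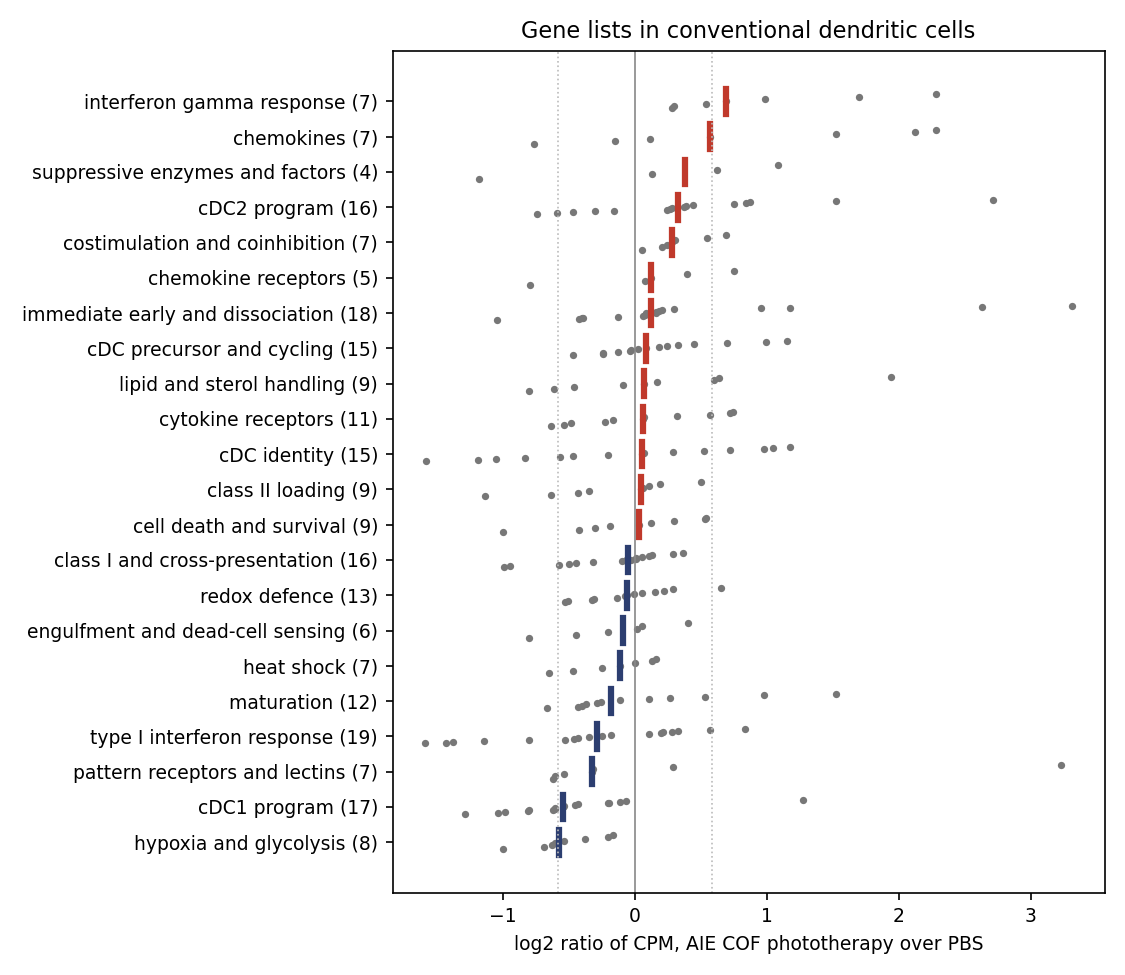
Log2 ratio of CPM in AIE COF members over PBS members (x axis) for each measured gene (grey points) of each gene list with at least 4 measured genes (number in brackets), with the list median as a bar and 1.5-fold as dotted lines. The hypoxia and glycolysis list had the lowest median, -0.57, and the interferon gamma list the highest, 0.69.

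Fibroblast transcripts were present in part of the members. The 6 fibroblast markers had 297 UMIs in 23 of 54 AIE COF members and 37 UMIs in 20 of 34 PBS members, and 1 AIE COF cell held 77.1% of the AIE COF total. That cell was an Xcr1/Clec9a cell of 37505 UMIs, and its doublet score was among those that would be removed. It held 77.8% of the Col3a1 UMIs and 80.3% of the Dcn UMIs of AIE COF members, and the log2 ratios of these matrix genes were -0.62 and -0.87 once barcodes of high doublet score were removed. It also held 65.8% of the UMIs of Fabp5, a fatty acid carrier, for which the sum gave 1.94. No member's barcode was retained in both libraries, although 32 other barcodes were.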

How the data were processed

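Single-cell RNA was measured in 1 library per group, prepared with a MobiCube 3' kit per the labels' protocols. Reads were mapped to mm10 with STAR, per the submitters' processing notes. No source at hand states the versions, the counting program or its annotation. The authors deposited raw UMI counts for 32285 genes, with 10002 AIE COF and 8962 PBS barcodes. The library totals were 115576457 and 145045294 UMIs, and no barcode held fewer than 500.

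Barcodes with at least 200 genes and at most 20% mitochondrial UMIs were kept, which left 9313 AIE COF and 8433 PBS cells. No doublets were removed in the values reported. Scrublet (scanpy 1.11.5), run as an alternative, would remove 745 AIE COF and 605 PBS barcodes, among them 8 and 2 members. Where a symbol stood on several rows, the row with the most UMIs kept it and the other 40 rows were read by gene ID. Members and gene lists were chosen with earlier results of these data known.

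Counts were summed over the cells of each library and divided by their total UMIs and scaled to 1000000 to give CPM. Intervals on CPM are exact Poisson, on shares exact Clopper-Pearson and on ratios exact conditional binomial, all at 95%. They cover counting error only, since cells of 1 library are not replicates, so no test was made. A count of 0 was set to a floor of 3 counts over the group, which gives a bound. Named genes were the 10 highest and 10 lowest ratios among genes with at least 50 UMIs in all, 50 CPM in either library, a UMI in 10% of the members of the library where they were higher and the same direction with cells weighted equally. Mitochondrial, ribosomal, haemoglobin, antigen receptor and unnamed genes were left out, as were genes at 5 times or more the member level in the other kept cells. Between subsets the 10 each way were ranked by the smaller of the 2 libraries' ratios. In each of 23 gene lists up to 6 genes past the fold were named. Others, such as Adgre1, Fos, Batf3 and Il1b, were named after their values were seen. Some genes that the rule named are not reported here. Gene annotations overlap for Ppt1, Gapdh, Ube2c, Junb and Irf7, and reads of Ifit3 may be shared with a near-identical copy, so these counts are uncertain. Alternatives covered the marker, class II, C1q and quality limits, doublets, thinning, weights, centring and gene minimum. The calculation was tested on simulated data. Python 3.11.15, numpy 2.4.6, scipy 1.17.1 and pandas 2.3.3 were used.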

Additional observations from a re-analysis of the deposited data

Results flagged for a closer look

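A set of 13 genes moved in opposite directions within Xcr1/Clec9a cells and in the other members, with AIE COF over PBS given as a log2 ratio for each. The cells of 1 library are not replicates, so the difference was not tested for any of them. The genes were picked because they differed between these sets of cells. How many of all measured genes changed sign between the sets is not given, so the number picked is no finding. Most of the 13 are interferon-induced genes that were higher in AIE COF Xcr1/Clec9a cells and lower in the other AIE COF members.

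Ddx60 stood at 4.43 within Xcr1/Clec9a cells, on 31 AIE COF UMIs and 1 PBS UMI, and at -1.74 in the other members, where 1 PBS cell held 66.7% of the PBS UMIs. Ifitm1 stood at 3.62 within Xcr1/Clec9a cells, on 177 AIE COF and 10 PBS UMIs, and at -0.80 in the others, on 288 and 416 UMIs. Oasl2 stood at 2.72 and -2.21, with no cell holding more than 29.6% of its UMIs in any of the 4 sets. Cmpk2, a mitochondrial nucleotide kinase, stood at 2.38 and -2.79, but 1 cell held 71.1% or more of its UMIs in each set. Rsad2 stood at 2.28 and -3.19, Rtp4, a chaperone of receptors, at 2.18 and -0.96, Ifit3 at 2.0 and -1.96, and Ifit2 at 1.10 and -2.29. The PBS cell with Flt3 alone that held much of Ifit1 also held the largest part of Ifit2, Ifit3, Rsad2 and Cmpk2 among PBS members. Within AIE COF Xcr1/Clec9a cells the top cell of Cmpk2 and Rsad2, with 71.1% and 40.5% of their UMIs there, was the cell of 37505 UMIs that held 229 fibroblast UMIs and a doublet score among those that would be removed.

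Signalling genes crossed as well. Ccl4, an inflammatory chemokine, stood at 1.11 within Xcr1/Clec9a cells, on 186 AIE COF and 60 PBS UMIs, and at -1.17 in the others, on 88 and 165 UMIs. Nfkbia, the inhibitor of NF-kB, stood at 0.76 and -0.78, with no cell holding more than 17.6% of its UMIs in any set. Ccl17 stood at -1.61 within Xcr1/Clec9a cells and at 4.01 or more in the others, where PBS members held 0 UMIs and 1 cell held 98.3% of the AIE COF UMIs.

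The mitosis genes Mki67 and Cenpa went the other way. Mki67 stood at -0.60 within Xcr1/Clec9a cells, on 107 AIE COF and 113 PBS UMIs, and at 2.79 in the others, on 25 and 3 UMIs. Cenpa, the centromere histone, stood at -1.07 and 1.93. Among AIE COF cells with Flt3 alone, 1 cell held 89 of the 121 UMIs of 8 mitosis genes, Mki67 among them.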

How the results depend on the processing

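No paired analysis was possible because each group has 1 library. Leaving out members with fibroblast transcripts and leaving out each gene's top cell were alternatives chosen after seeing the data. The conventional dendritic share had a log2 ratio of 0.52 and became -0.17 among cells with a Ptprc UMI. Genes higher and lower in AIE COF members numbered 22 and 6 with cells thinned to 2000 UMIs, 157 and 148 without members holding fibroblast transcripts, 853 and 748 at a minimum of 20 UMIs, 119 and 122 at a minimum of 100, 446 and 238 without each gene's top cell, and 93 and 66 at 2-fold, while 499 were higher with subsets weighted equally. Genes higher in Xcr1/Clec9a and in Cd209a cells numbered 9 and 10 thinned, 22 and 32 without members holding fibroblast transcripts, 214 and 189 at a minimum of 20 UMIs, 48 and 38 at 100, and 43 and 18 at 3-fold, with 88 higher in Xcr1/Clec9a cells without members holding monocyte or macrophage transcripts. Fewer cells, fewer UMIs or another gene minimum set these counts by construction. Taking out each gene's top cell over unchanged totals tends to raise the ratios by construction.

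Of 80 named and listed genes past 1.5-fold, 58 kept their sign under every one of the 14 settings that gave them a value, and the cause of the turns below was not tested. At 3 UMIs of the rule genes, Apoe was -1.15, Ccl5 0.44, Ifit2 0.31 and Rsad2 0.14. With C1q genes at 0, Ccr2 was -0.61, Cd36 0.56, Hepacam2 0.063 and Slfn5 -0.10. With class II at 2%, Dcn was -0.72, Cxcl9 -0.093 and Iigp1 -0.62. Without doublets, Col3a1 was -0.62 and Dcn -0.87. Thinned, Il1r2 was -0.44 and Naaa 0.16. Without members holding monocyte or macrophage transcripts, Ccl17 was -2.32, Ccr2 -2.21, Cd36 0.18, Hepacam2 2.30 and Slfn5 -1.26. Without members holding fibroblast transcripts, Cxcl9 was -0.72, Apoe -1.54, Ccr1 0.55, Gbp7 -0.69, Hepacam2 2.41 and the interferon gamma median -0.26. With cells weighted equally, Apoe was -0.62, Cd36 0.036 and Rab7b 0.24. With subsets weighted equally, Ifit1 was 1.93, Ccl5 0.52, Ifih1 0.47, Ifit2 1.21, Ifit3 0.16, Rsad2 0.46 and Txnrd1 -0.56. Without the top cell, Hepacam2 was 0.10. With 34 PBS members, genes under 50 UMIs, 292 genes of the gene and marker lists among them, were not measured.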

Other observations

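Some lists are not described above. Of 9 measured lipid and sterol genes 3 were higher and 2 lower in AIE COF members, with Fabp5 and the lipoprotein Apoe among the higher and Plin2 and Cd36 lower. Of 4 measured suppressive factors 2 were higher, Tgfbi, a matrix protein induced by TGF-beta, at 205 CPM in AIE COF members and 96.6 CPM in PBS members, and Spp1, the matrix protein osteopontin, at 166 CPM in AIE COF members and 108 CPM in PBS members. Ptgs2 was lower, at 108 CPM in AIE COF members and 246 CPM in PBS members, where it was found in 3 cells and 1 of them held 58.4% of its UMIs. Of 11 measured cytokine receptors 2 were higher and 1 lower, and of 7 pattern receptors and lectins 1 was higher and 2 were lower.

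Mature dendritic cells, which the rule left out, were 18 cells or 0.193% of retained cells in the AIE COF library and 10 cells or 0.119% in the PBS library, a ratio of 1.63 with an interval of 0.713 to 3.95. Xcr1 and Clec9a stood at 181 and 160 CPM in those of the AIE COF library, where each was found in 2 of 18 cells, and at 0 in the 10 cells of the PBS library.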
